A study of Danio rerio with 32 samples.

Results

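Glutathione S-transferases were followed over all groups of the series, from a list of 10 zebrafish genes that was matched by symbol to the Entrez gene IDs of the deposited count table. A row was found for 9 of the 10 among 16825 rows. They were the pi class genes gstp1.1 and gstp1.2, the omega class genes gsto1 and gsto2, and 1 gene each of the theta (gstt1b), mu (gstm.3), kappa (gstk1), rho (gstr) and zeta (gstz1) classes. The alpha class gene gsta.1 was not analysed here.

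Whole zebrafish larvae were profiled at 7 days post fertilization (dpf) in pools of 10, with 8 groups of 4 pools, and the pool is the replicate. In crkeap1a/b, crkeap1a and crkeap1b larvae, CRISPR/Cas9 was injected into embryos without a knockout against both Keap1 paralogs or against 1 of them. Bach1 DKO crkeap1a/b and Bach1 DKO larvae were knocked out for bach1a and bach1b, and Nrf2 KO crkeap1a/b and Nrf2 KO larvae for nfe2l2a. In each of these lines the first group was injected against keap1a and keap1b and the second was not. The last group was WT. Injected larvae are mosaic, so a pool mixes edited and unedited cells. The study worked in part with lines that carry EGFP under the gstp1 promoter, for its Keap1 crispants and its Bach1 line, and the labels do not say which profiled pools carried it. Controls are stated to be clutch siblings, but no label ties pools to clutches, so in comparisons of a knockout line with WT the mutation and the line cannot be told apart. The same holds for differences between backgrounds in the change with editing, and no label gives the extent of editing in a pool.

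Glutathione S-transferases join the tripeptide glutathione to reactive electrophiles, which are then exported and broken down, and some classes do other work on thiols and ketones. Keap1 holds the transcription factor Nrf2 down by sending it to the proteasome, and freed Nrf2 binds antioxidant response elements near detoxification genes. Bach1 is a repressor that binds elements of a similar kind. In zebrafish, the gstp1 promoter is used as a reporter of Nrf2 activity, and the comparisons below ask how each transferase transcript moved with loss of Keap1, Bach1 or Nrf2.

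Libraries were made by 3′ end sequencing, so counts are not expected to scale with the length of the gene. Levels are given as CPM (counts per 1e+06 counts of the scaled library size). Comparison between genes is approximate, since no molecular identifiers are stated and the handling of reads shared by paralogs is not known. Total counts were between 3464165 and 4712448 per pool. The detection floor was taken as 3 counts, or 0.637 to 0.866 per 1e+06 total counts. On the scaled library size used for CPM it can lie outside this range, as 3 counts were 0.631 CPM in WT pool 3 and 0.892 CPM in crkeap1b pool 1. This floor covers counting error only. Reads at the 3′ end need not show an edit, and transcript levels of the edited genes were higher in some edited groups and lower in others. The crkeap1a/b mean of keap1a was 25.6 ± 3.79 CPM, with a WT mean of 9.69 ± 1.23 CPM, and the Nrf2 KO mean of nfe2l2a was 179.5 ± 14.3 CPM, with a WT mean of 247 ± 34.4 CPM (SD, n = 4 each). A lower nfe2l2a level was not particular to the Nrf2 line. Its means were below WT in all other groups, from 135.8 CPM (Bach1 DKO crkeap1a/b) to 194 CPM (Bach1 DKO). keap1b ran from 8.55 to 11.2 CPM in Nrf2 KO crkeap1a/b and 16.9 to 19.9 CPM in Nrf2 KO pools, and bach1a from 3.33 to 4.92 CPM in Bach1 DKO and 5.68 to 8.6 CPM in WT pools. bach1b went the other way, at 21.1 to 30.6 CPM in Bach1 DKO and 10.3 to 17.6 CPM in WT pools. On the first principal component of log2 CPM (23.0% of the variance), crkeap1a pools 2 and 3 and crkeap1b pools 1, 3 and 4 stood apart at 50.3 to 76.8, against -59.4 to 23.6 in the other 27 pools. Transferase calls that rest on these 5 pools are given with and without them. Marker sums, counts of genes whose pools did not overlap and correlations are given with them only. The SD of log2 CPM within a group was 0.524 in crkeap1a and 0.569 in crkeap1b, against 0.331 to 0.404 in the other groups. The tests below use 1 spread per gene over all groups, which can understate the spread of the single crispants. Markers of all 7 cell types searched were detected in every group. Summed hepatocyte markers (7 genes) ran from 1588 to 3667 CPM in crkeap1a, 1756 to 5288 CPM in crkeap1b, 1524 to 2109 CPM in crkeap1a/b and 1326 to 2079 CPM in WT pools. Summed enterocyte markers (6 of 7 names with a row) ran from 752 to 1416 CPM in crkeap1a, 736 to 1825 CPM in crkeap1b, 459.5 to 612 CPM in crkeap1a/b and 728 to 874 CPM in WT pools. By gene, the log2 fold change in crkeap1a/b against WT larvae was -1.73 for chia.1, -1.32 for slc15a1b and -0.55 for apoa4b.1. It was -0.04 for cubn, 0.004 for fabp6 and 0.47 for apoa1a, so the lower sum was not shared by all 6 genes. Summed muscle markers (3 of 5 names with a row) ran from 4737 to 7177 CPM in crkeap1a, 5282 to 10350.1 CPM in crkeap1b, 2144 to 2719 CPM in crkeap1a/b and 3200.2 to 3908 CPM in WT pools, so they were above WT with either single edit and below it with both. Their part in the transferase levels was not tested, and in whole larvae fewer cells of a type and less RNA per cell cannot be told apart.

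Combined editing of keap1a and keap1b went with a large rise of the pi and omega transferases and no call among the other classes. The summed level of the 9 genes was 1386 ± 382 CPM in crkeap1a/b larvae and 191 ± 18.7 CPM in WT larvae (SD, n = 4 each). In WT larvae most of this sum came from gstr (63.3 ± 11.6 CPM), gstp1.2 (55.5 ± 6.94 CPM) and gstz1 (48.4 ± 6.28 CPM), and the other 6 genes averaged from 0.929 CPM (gstt1b) to 6.52 CPM (gstk1). In crkeap1a/b larvae gstp1.2 alone made up 62.8% of the sum, against 29.0% in WT larvae, and gsto2 made up 14.7%, against 3.21%. By limma-voom, 4 of the 9 genes were called at an adjusted p under 0.05 (Benjamini-Hochberg over 14660 rows), all of them higher, where 5.26% of all rows were called and 3.36% were called higher. The median log2 fold change was 1.44 over the 9 genes and -0.02 over all rows tested.

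**Figure D1:**
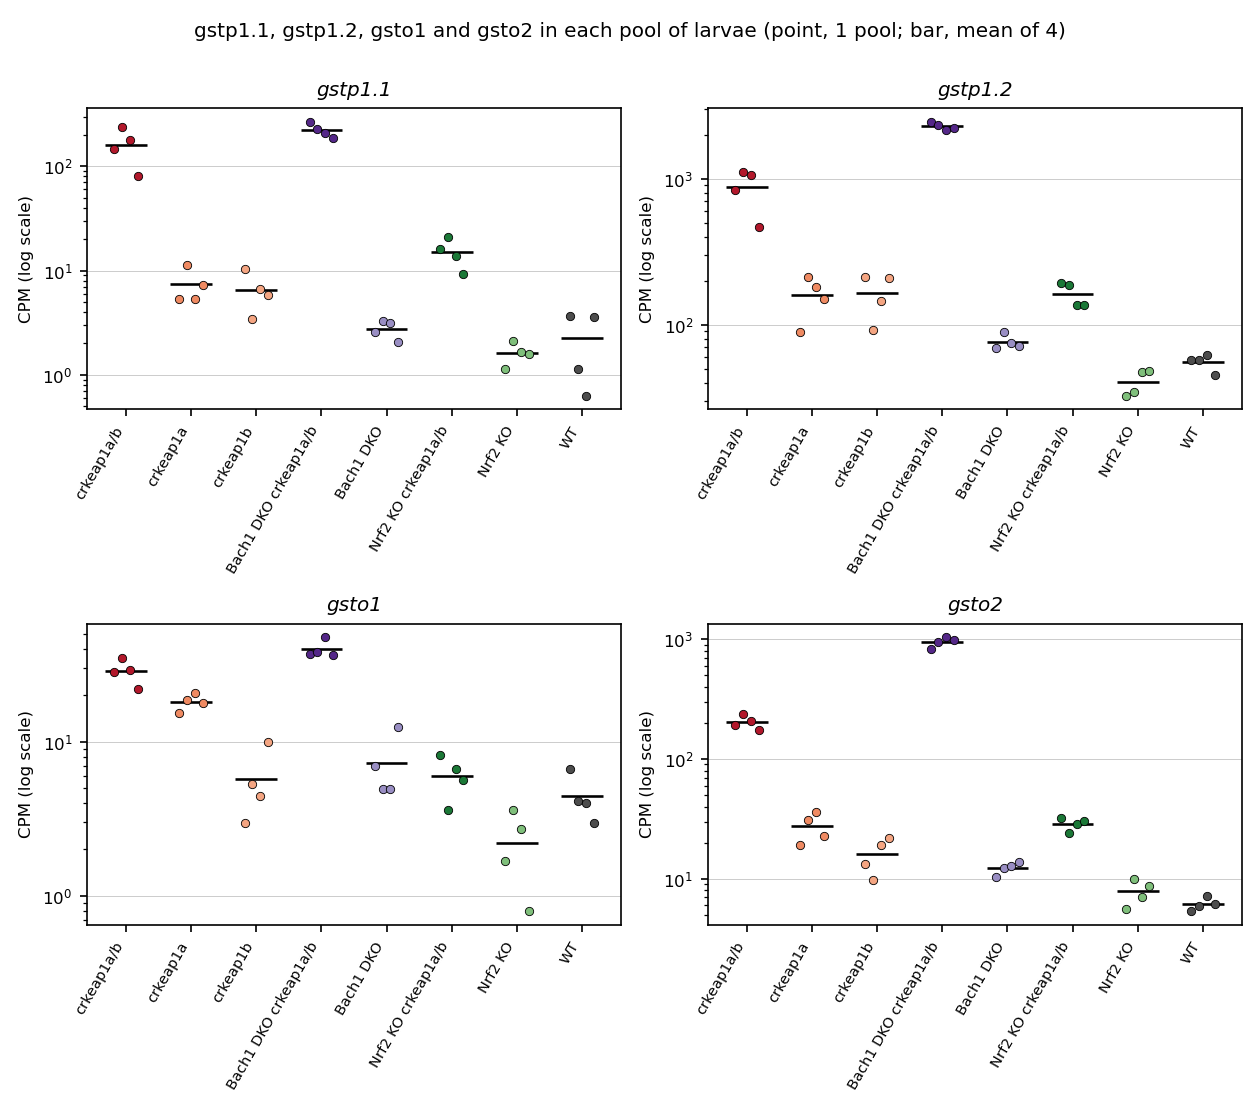
Level of gstp1.1, gstp1.2, gsto1 and gsto2 (CPM, log axis) in each of the 8 groups. Each point is 1 pool of 10 larvae and each bar the mean of 4 pools; the highest mean of each gene is that of Bach1 DKO crkeap1a/b larvae, with crkeap1a/b larvae second.

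The pi class enzymes are broad conjugating enzymes, and gstp1.1 and gstp1.2 lie side by side with 0 annotated genes between them in the RefSeq gene order. The crkeap1a/b pools held 145, 237, 178 and 80.8 CPM of gstp1.1, against 3.65, 1.14, 0.631 and 3.59 CPM in WT pools. The groups were far apart, and the WT level rests on 42 counts over its 4 pools. The log2 fold change was 6.30 (SE 0.50, limma-voom adjusted p = 3.91e-12). For gstp1.2 the crkeap1a/b pools held 838, 1119, 1058 and 468 CPM, against 57.2, 57.3, 61.9 and 45.6 CPM in WT pools. The fourth crkeap1a/b pool was the lowest for both genes, and none of the 4 overlapped WT. gstp1.2 rose by 3.90 on the log2 scale (SE 0.24, limma-voom adjusted p = 4.63e-15). The 95% intervals of the log2 fold change, 5.28 to 7.31 for gstp1.1 and 3.41 to 4.39 for gstp1.2, did not overlap.

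Omega class enzymes have little conjugating activity and reduce dehydroascorbate and mixed disulfides, and gsto1 and gsto2 are also neighbours, with 0 annotated genes between them. The crkeap1a/b pools held 192, 236, 209 and 176 CPM of gsto2, against 5.37, 5.93, 7.15 and 6.12 CPM in WT pools. For gsto1 they held 28.4, 35.1, 29.1 and 22.1 CPM, against 6.66, 4.11, 4.00 and 2.96 CPM in WT pools. Both genes stood clear of WT in every pool, but by different amounts: the log2 fold change was 5.02 for gsto2 (SE 0.22, limma-voom adjusted p = 2.51e-19) and 2.71 for gsto1 (SE 0.28, limma-voom adjusted p = 2.59e-09). The ratio of gsto2 to gsto1 was 6.73 to 7.93 in crkeap1a/b pools and 0.806 to 2.07 in WT pools. The ratio of gstp1.2 to gstp1.1 moved the other way, at 4.72 to 5.96 in crkeap1a/b pools against 12.7 to 98.0 in WT pools. A ratio within a pool does not depend on library scaling. How the authors counted reads that match more than 1 paralog is not stated, so the split between neighbours is uncertain.

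**Figure D2:**
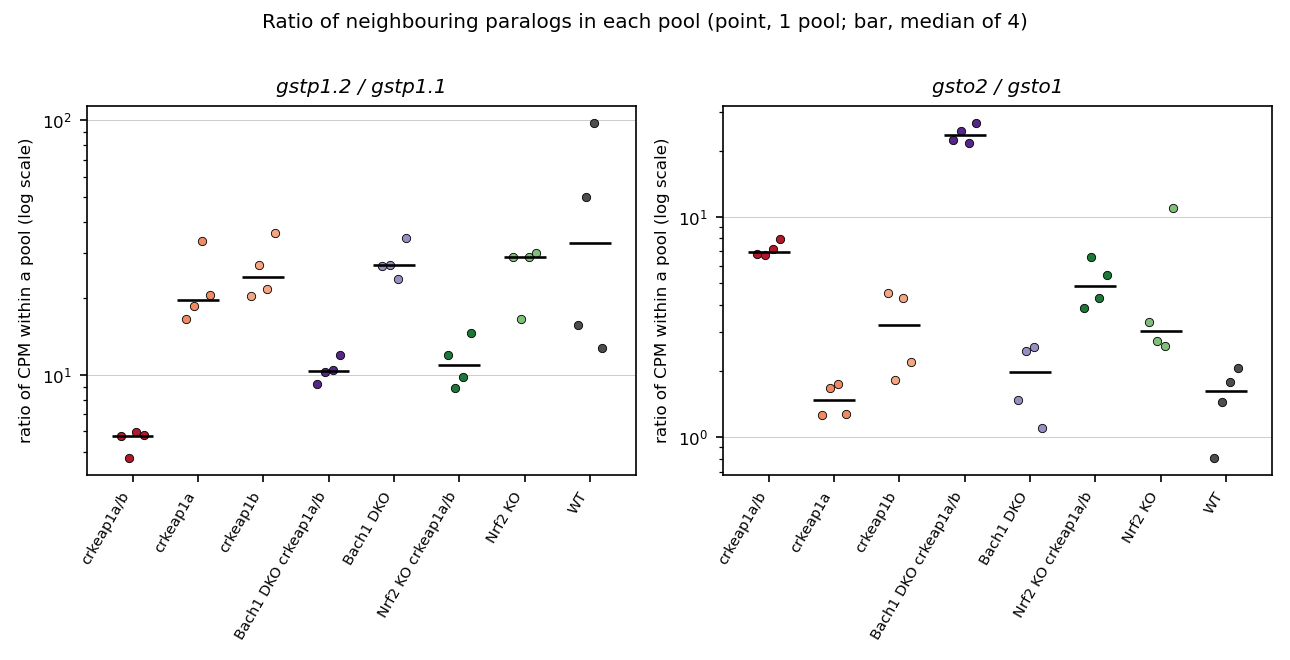
Ratio of gstp1.2 to gstp1.1 and of gsto2 to gsto1 (CPM over CPM, log axis) in each pool, by group, with the median of 4 pools as a bar. The ratio of gsto2 to gsto1 was highest in Bach1 DKO crkeap1a/b pools, at 21.7 to 26.8, and the widest range is that of gstp1.2 to gstp1.1 in WT pools, where gstp1.1 had few counts.

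The remaining 5 genes were not called in crkeap1a/b larvae. The theta class gene gstt1b was near the floor, with a mean of 2.43 ± 0.938 CPM in crkeap1a/b larvae against 0.929 ± 0.589 CPM in WT larvae (SD, n = 4 each). Its crkeap1a/b pools, at 1.64 to 3.76 CPM, lay above the WT pools, at 0.421 to 1.50 CPM, but the log2 fold change of 1.44 did not pass (95% interval 0.34 to 2.54, limma-voom adjusted p = 0.127). Beside it, 12.4% of all rows had pools that did not overlap in this comparison. The mu class gene gstm.3 had 2.64 ± 1.11 CPM against 3.88 ± 0.674 CPM, with an interval of the log2 fold change of -1.37 to 0.15. For gstk1, a mitochondrial and peroxisomal enzyme in mammals, that interval was -1.21 to 0.54. It was narrow for gstz1, the maleylacetoacetate isomerase of tyrosine breakdown, at -0.24 to 0.37. The rho class gene gstr, of a class known in fish, had 65.0, 57.6, 69.4 and 57.0 CPM in crkeap1a/b pools and 67.7, 49.3, 76.6 and 59.7 CPM in WT pools, which overlap throughout.

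Editing of 1 paralog alone also went with higher levels of pi and omega genes. In crkeap1a larvae 5 of the 9 genes were called, all higher, where 13.1% of all rows were called and 6.13% called higher. Pools of 4 of the 9 genes did not overlap with WT, against 12.9% of all rows. gsto2 had 19.3, 31.1, 36.0 and 22.9 CPM in crkeap1a pools, all above WT, and its log2 fold change was 2.09 (SE 0.23, limma-voom adjusted p = 1.08e-06). For gsto1 the crkeap1a pools held 15.3, 18.6, 20.7 and 18.0 CPM, again clear of WT, and it rose by 2.06 on the log2 scale (SE 0.29, limma-voom adjusted p = 3.01e-05). gstp1.2 rose by 1.46 on the log2 scale (SE 0.23) and gstp1.1 by 1.93 (SE 0.55). gstt1b was called too (1.66, SE 0.55, limma-voom adjusted p = 0.0402), though its crkeap1a pools, at 1.42 to 5.58 CPM, overlapped those of WT. Without crkeap1a pools 2 and 3, which left 2 pools, the calls of gstp1.1 (1.78, limma-voom adjusted p = 0.265) and gstt1b (1.09, limma-voom adjusted p = 0.41) were lost and those of gstp1.2, gsto1 and gsto2 were not. That fit also left out crkeap1b pools 1, 3 and 4. Leaving out crkeap1a pool 2 or WT pool 3 alone also left 3 calls, as did a fit of only the crkeap1a and WT pools. There gstp1.1 did not pass (limma-voom adjusted p = 0.0505). gstt1b, which reached 2.47 CPM in 0 WT and 2 crkeap1a pools, was left out by the count filter and not tested.

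In crkeap1b larvae 6 of the 9 genes were called, all higher, where 17.8% of all rows were called and 9.73% called higher. Pools of 4 of the 9 genes did not overlap, against 11.8% of all rows. gstp1.2 had 213, 91.8, 145 and 208 CPM in crkeap1b pools, with a log2 fold change of 1.50 (SE 0.23, limma-voom adjusted p = 4.58e-05). gsto2 had 13.4, 9.71, 19.1 and 21.9 CPM (1.26, SE 0.25, limma-voom adjusted p = 0.000742). In both genes the second pool was the lowest, and it is the only crkeap1b pool that did not stand apart on the first principal component. gsto1 did not follow: its crkeap1b pools, at 2.97, 5.34, 4.46 and 10.0 CPM, overlapped those of WT, and it was not called. They lay below the 15.3 to 20.7 CPM of the crkeap1a pools, a difference that was not tested. The other calls were gstp1.1 (1.68, SE 0.57), gstk1 (1.2, SE 0.38), gstz1 (0.53, SE 0.15) and gstr (0.52, SE 0.14). gstm.3 was not called (0.86, limma-voom adjusted p = 0.0543). Its crkeap1b pools, at 5.58 to 8.92 CPM, lay above those of WT, at 3.42 to 4.85 CPM. It passed with edgeR (adjusted p = 0.0452), with DESeq2 (adjusted p = 0.0333) and with the replicate number as a block (limma-voom adjusted p = 0.0478). Scaling by total counts left 2 of the 6, gstp1.2 and gsto2, and so did a fit of only the crkeap1b and WT pools. Leaving out crkeap1b pools 1, 3 and 4, in the same fit that left out crkeap1a pools 2 and 3, left 1 crkeap1b pool. It was assumed to vary like the other groups. There were then 0 calls, and the log2 fold change was 0.74 for gstp1.2, 0.66 for gsto2, 0.89 for gstp1.1, 0.41 for gstk1, 0.31 for gstr and 0.02 for gstz1. Leaving out crkeap1b pool 4 alone also left 2 calls.

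Whether both edits together did more than the sum of the single ones was tested as an interaction on the log2 scale, where 38% of all rows were called, 19.4% positive and 18.6% negative. It was positive for gstp1.1 (2.69, SE 0.66, limma-voom adjusted p = 0.00154), gsto2 (1.67, SE 0.30, limma-voom adjusted p = 5.04e-05) and gstp1.2 (0.95, SE 0.33, limma-voom adjusted p = 0.0235). For gsto1 it was 0.40 (95% interval -0.44 to 1.23), which did not pass. The interaction was negative for gstk1 (-2.38, SE 0.56), gstr (-0.88, SE 0.20) and gstz1 (-0.81, SE 0.21), the genes that were higher in crkeap1b larvae and not in crkeap1a/b larvae. With total-count scaling the terms of gstr (-0.18, limma-voom adjusted p = 0.446) and gstz1 (-0.11, limma-voom adjusted p = 0.637) did not pass, and that of gsto1 did (1.06, limma-voom adjusted p = 0.0264). Without the 5 pools that stood apart, which left 2 crkeap1a pools and 1 crkeap1b pool, the calls of gsto2 and gstp1.2 were left. In that fit the term was 3.63 for gstp1.1 (limma-voom adjusted p = 0.0826), -1.55 for gstk1, -0.60 for gstr and -0.05 for gstz1. The call of gstp1.2 was lost in 3 of 16 fits that left out 1 pool. It was also lost when only the 4 groups were fitted (0.97, limma-voom adjusted p = 0.0693).

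In Bach1 DKO larvae, without editing of keap1a and keap1b, gsto2 was modestly higher than in WT larvae. gstp1.1, gstp1.2 and gsto1 were not called. Of the 9 genes 3 were called, 2 higher and 1 lower, where 23.3% of all rows were called, 11.8% higher and 11.5% lower. For 9 genes that count is close to the share over all rows. Pools of 5 of the 9 genes did not overlap, against 27.4% of all rows. gsto2 had 10.2, 12.2, 12.8 and 13.7 CPM in Bach1 DKO pools, above all WT pools, with a log2 fold change of 0.98 (SE 0.25, limma-voom adjusted p = 0.00407). gstr was higher as well (91.6 ± 10.3 against 63.3 ± 11.6 CPM, log2 fold change 0.54, SE 0.14). gstz1 was lower, with 34.1, 33.0, 35.2 and 32.4 CPM in Bach1 DKO pools against 42.3, 43.8, 52.0 and 55.3 CPM in WT pools (-0.51, SE 0.16, limma-voom adjusted p = 0.017). The groups did not overlap for gstz1. gstp1.2 averaged 75.8 ± 8.81 CPM in Bach1 DKO and 55.5 ± 6.94 CPM in WT larvae (SD, n = 4 each), with pools that did not overlap and a log2 fold change of 0.45 (95% interval -0.03 to 0.93, limma-voom adjusted p = 0.164). It passed when only these 2 groups were fitted (limma-voom adjusted p = 0.00692). Summed muscle markers were 4035 to 4702 CPM in Bach1 DKO and 3200 to 3908 CPM in WT pools, and epidermis sums 224 to 293 against 320 to 528 CPM. Sums of the other cell types overlapped. The part of cell types in these transferase levels was not tested.

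Editing of keap1a and keap1b in the Bach1 line gave the highest pi and omega levels of the series. The 9 genes summed to 3620.4 ± 81.3 CPM in Bach1 DKO crkeap1a/b larvae and 243 ± 10.3 CPM in Bach1 DKO larvae (SD, n = 4 each). Of the 9 genes, 5 were called higher and 1 lower, where 24.7% of all rows were called, 13.5% higher and 11.2% lower. Pools of 6 of the 9 genes did not overlap, against 33.7% of all rows. The Bach1 DKO crkeap1a/b pools held 829, 940.4, 1037 and 980.5 CPM of gsto2, against the 10.2 to 13.7 CPM of Bach1 DKO pools. For gstp1.2 they held 2448, 2346, 2163 and 2238 CPM, against 68.9, 88.6, 74.5 and 71.3 CPM. These 2 genes accounted for 26.1% and 63.5% of the summed transferase level of the edited larvae. The log2 fold change was 6.26 for gsto2 (SE 0.19, limma-voom adjusted p = 1.31e-24) and 4.92 for gstp1.2 (SE 0.25, limma-voom adjusted p = 3.94e-18).

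The partner genes rose as well, from low levels. gstp1.1 had 267, 229, 207 and 187 CPM in Bach1 DKO crkeap1a/b pools, against 2.56, 3.28, 3.12 and 2.07 CPM in Bach1 DKO pools (a log2 difference of 6.27, SE 0.45, limma-voom adjusted p = 1.04e-13). Its Bach1 DKO level rests on 44 counts over 4 pools. gsto1 had 37.0, 38.1, 47.8 and 36.5 CPM, against 6.92, 4.92, 4.95 and 12.4 CPM (2.54, SE 0.25, limma-voom adjusted p = 3.74e-10). Neither gene's groups overlapped. gstt1b had 3.72, 4.32, 4.05 and 5.57 CPM, against 1.54, 1.64, 2.34 and 2.07 CPM (1.16, SE 0.41, limma-voom adjusted p = 0.0345), a call that was lost with edgeR (adjusted p = 0.0579) and in 6 of 8 fits that left out 1 pool. This gene reached the count filter of 2.47 CPM in 10 of 32 pools, 4 of them in this group. gstr was lower (69.3 ± 10.8 against 91.6 ± 10.3 CPM, a log2 difference of -0.41, SE 0.14, limma-voom adjusted p = 0.0272), with overlapping pools, and the call was lost in 6 of 8 fits that left out 1 pool. gstz1 pools, at 23.9 to 30.2 CPM in Bach1 DKO crkeap1a/b larvae, lay below the 32.4 to 35.2 CPM of Bach1 DKO pools, but the log2 fold change of -0.34 did not pass (limma-voom adjusted p = 0.133). In this comparison summed enterocyte markers were 489 to 589 CPM in Bach1 DKO crkeap1a/b and 796 to 821 CPM in Bach1 DKO pools. Summed muscle markers were 1506 to 1751 CPM in Bach1 DKO crkeap1a/b and 4035 to 4702 CPM in Bach1 DKO pools. Exocrine pancreas sums were 2326 to 3283 against 6049 to 6448 CPM, and epidermis sums 119 to 167 against 224 to 293 CPM. Neuron sums were 1228 to 1313 against 1580 to 1784 CPM. The 1 erythrocyte gene with a row was higher (29.6 to 36.1 against 5.38 to 10.3 CPM). Hepatocyte sums overlapped, and of their genes fgb alone was called (2.29). The part of these cell types in the transferase levels was not tested. Of the enterocyte genes, chia.1 (-2.11) and slc15a1b (-1.70) were called lower. The others were not called, at -0.63 for cubn, -0.30 for apoa4b.1, 0.06 for fabp6 and 0.72 for apoa1a.

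**Figure D3:**
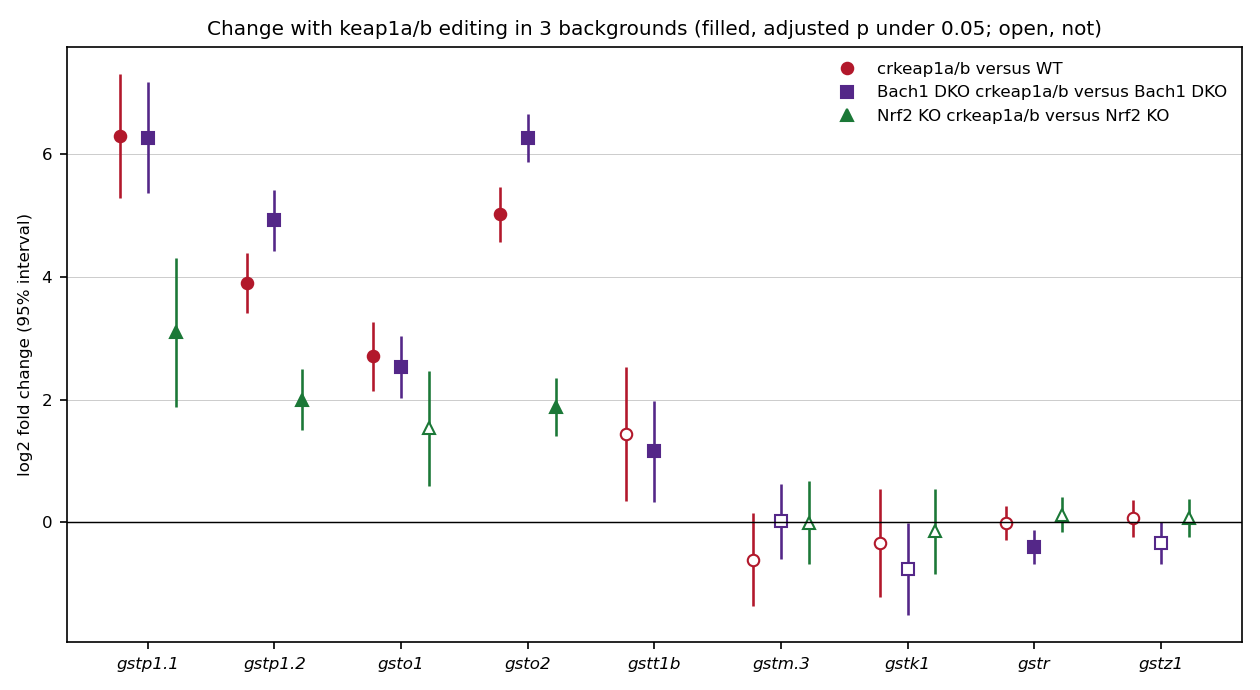
Log2 fold change of each transferase with combined keap1a and keap1b editing in the WT background (circles), the Bach1 DKO line (squares) and the Nrf2 KO line (triangles), with 95% intervals from limma-voom; filled symbols passed an adjusted p under 0.05. gsto2 had 5.02, 6.26 and 1.88 in the 3 backgrounds, and gstt1b in the Nrf2 line is left out because its edited pools held 3 counts in all.

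The change with editing was larger in the Bach1 line than in the WT background for gsto2 only, by the test of the difference itself, in which 2.71% of all rows were called and 1.49% called higher. That difference was 1.24 on the log2 scale for gsto2 (95% interval 0.65 to 1.84, limma-voom adjusted p = 0.015). It was nearly as large for gstp1.2, at 1.02 (0.32 to 1.72), but did not pass (limma-voom adjusted p = 0.103). gstp1.2 passed with sample quality weights (limma-voom adjusted p = 0.0237) and when only the 4 groups were fitted (limma-voom adjusted p = 0.0203). gstp1.1 and gsto1 did not pass. The ratio of gsto2 to gsto1 was 21.7 to 26.8 in Bach1 DKO crkeap1a/b pools and 6.73 to 7.93 in crkeap1a/b pools.

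In the Nrf2 line the same editing still went with higher levels of gstp1.1, gstp1.2 and gsto2. These were the 3 of the 9 genes called between Nrf2 KO crkeap1a/b and Nrf2 KO larvae, where 0.784% of all rows were called and 0.696% called higher. Pools of 4 of the 9 genes did not overlap, against 11.8% of all rows. gstp1.2 had 194, 187, 136 and 136 CPM in Nrf2 KO crkeap1a/b pools, against 32.7, 34.7, 47.5 and 47.9 CPM in Nrf2 KO pools (a log2 difference of 2.00, SE 0.24, limma-voom adjusted p = 1.2e-06). gsto2 had 31.9, 23.9, 28.4 and 30.4 CPM, against 5.64, 9.86, 7.10 and 8.74 CPM (1.88, SE 0.23, limma-voom adjusted p = 1.57e-06). gstp1.1 had 16.2, 21.0, 13.8 and 9.35 CPM, against 1.13, 2.09, 1.64 and 1.59 CPM (3.1, SE 0.60, limma-voom adjusted p = 0.0034). Its Nrf2 KO level rests on 23 counts over 4 pools. The edited and unedited pools did not overlap for any of these 3 genes. gsto1 averaged 6.03 ± 1.93 CPM in Nrf2 KO crkeap1a/b and 2.20 ± 1.22 CPM in Nrf2 KO larvae (SD, n = 4 each), also without overlap, and its log2 fold change of 1.53 (95% interval 0.60 to 2.47) did not pass (limma-voom adjusted p = 0.108). DESeq2 called it (adjusted p = 0.00994). So did limma-voom with sample quality weights (adjusted p = 0.0365) and with only these 2 groups fitted (adjusted p = 0.0364). gstt1b held 3 counts in the 4 Nrf2 KO crkeap1a/b pools, each below the floor at 0.534 CPM or less, and 10 counts in the 4 Nrf2 KO pools.

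Tested as a difference between backgrounds, the change with editing was smaller in the Nrf2 line for 3 of the 9 genes, where 1.11% of all rows were called and 0.662% called lower. The difference was -3.20 for gstp1.1 (SE 0.78, limma-voom adjusted p = 0.0264), -1.90 for gstp1.2 (SE 0.34, limma-voom adjusted p = 0.00119) and -3.15 for gsto2 (SE 0.32, limma-voom adjusted p = 4.12e-08). gsto1 moved the same way without passing (-1.17, 95% interval -2.27 to -0.08, limma-voom adjusted p = 0.397). The call of gstp1.1 was lost when only these 4 groups were fitted (-3.21, limma-voom adjusted p = 0.0896) and in 5 of 16 fits that left out 1 pool (-3.54 to -2.73 over the 16). With editing, the log2 fold change of keap1a was 1.38 in the WT background and 0.03 in the Nrf2 line. That of keap1b was 0.18 and -0.95. The mutation, the line and the extent of editing cannot be told apart in these differences. Summed muscle markers were 4623 to 5745 CPM in Nrf2 KO crkeap1a/b and 4914 to 5791 CPM in Nrf2 KO pools. Enterocyte sums were 622 to 872 against 681 to 834 CPM. Neuron sums alone did not overlap, at 1409 to 1490 against 1603 to 1768 CPM. The part of cell types in the differences between backgrounds was not tested. Between Nrf2 KO and WT larvae, without editing, gstk1 alone of the 9 genes was called, where 16.1% of all rows were called and 8.51% called higher. It was also the 1 gene of the 9 whose pools did not overlap, against 20.6% of all rows. It had 11.6, 15.5, 19.1 and 10.9 CPM in Nrf2 KO pools, above the 5.80, 6.39, 9.89 and 4.01 CPM of WT pools (1.15, SE 0.38, limma-voom adjusted p = 0.0321), a call that was lost with scaling by total counts (limma-voom adjusted p = 0.0713) and without Nrf2 KO pool 2 or 3 or WT pool 1, 2 or 4. gstp1.2 (-0.45, 95% interval -0.96 to 0.05) and gsto1 (-1.10, -2.04 to -0.15, limma-voom adjusted p = 0.107) were lower without passing. With total-count scaling both passed (limma-voom adjusted p = 0.0476 for gstp1.2 and 0.0263 for gsto1). gstp1.2 also passed when only these 2 groups were fitted (limma-voom adjusted p = 0.0363), and gsto1 with DESeq2 (adjusted p = 0.0419). Muscle sums were 4914 to 5791 CPM in Nrf2 KO and 3200 to 3908 CPM in WT pools. The erythrocyte gene was at 2.39 to 5.74 against 7.74 to 14.2 CPM. Sums of the other cell types overlapped, and the part of cell types in this comparison was not tested.

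The order of the groups was much the same for the 4 pi and omega genes. Bach1 DKO crkeap1a/b larvae came first and crkeap1a/b larvae second in each, with pools that did not overlap for gstp1.2, gsto1 and gsto2 and did for gstp1.1. For gstp1.2 and gsto2 the next places went to crkeap1a, crkeap1b and Nrf2 KO crkeap1a/b larvae. For gstp1.2 their means did not differ beyond spread (159 ± 52.7, 164 ± 57.4 and 163 ± 31.4 CPM, SD, n = 4 each). For gsto2 the crkeap1b pools, at 9.71 to 21.9 CPM, overlapped the next group, Bach1 DKO, at 10.2 to 13.7 CPM. Without the pools that stood apart, the crkeap1b pool left held 9.71 CPM of gsto2, below all Bach1 DKO pools. Its 91.8 CPM of gstp1.2 lay below Nrf2 KO crkeap1a/b pools (136 to 194 CPM) and above Bach1 DKO pools (68.9 to 88.6 CPM). The crkeap1a pools left stayed above all Bach1 DKO pools for both genes. In gsto1, crkeap1a larvae came next at a mean of 18.1 CPM. Bach1 DKO (7.31 CPM), Nrf2 KO crkeap1a/b (6.03 CPM) and crkeap1b larvae (5.70 CPM) followed, and neighbours among these had overlapping pools. WT or Nrf2 KO larvae were lowest in all 4 genes. gstz1 had another order: Bach1 DKO crkeap1a/b larvae were lowest at 26.7 ± 2.61 CPM, below Bach1 DKO larvae at 33.7 ± 1.21 CPM and all other groups at 48.4 to 71.4 CPM. The means of gstr spanned 62.2 to 91.6 CPM and those of gstm.3 2.64 to 7.35 CPM, and no neighbours in either order were apart in all pools.

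**Figure D4:**
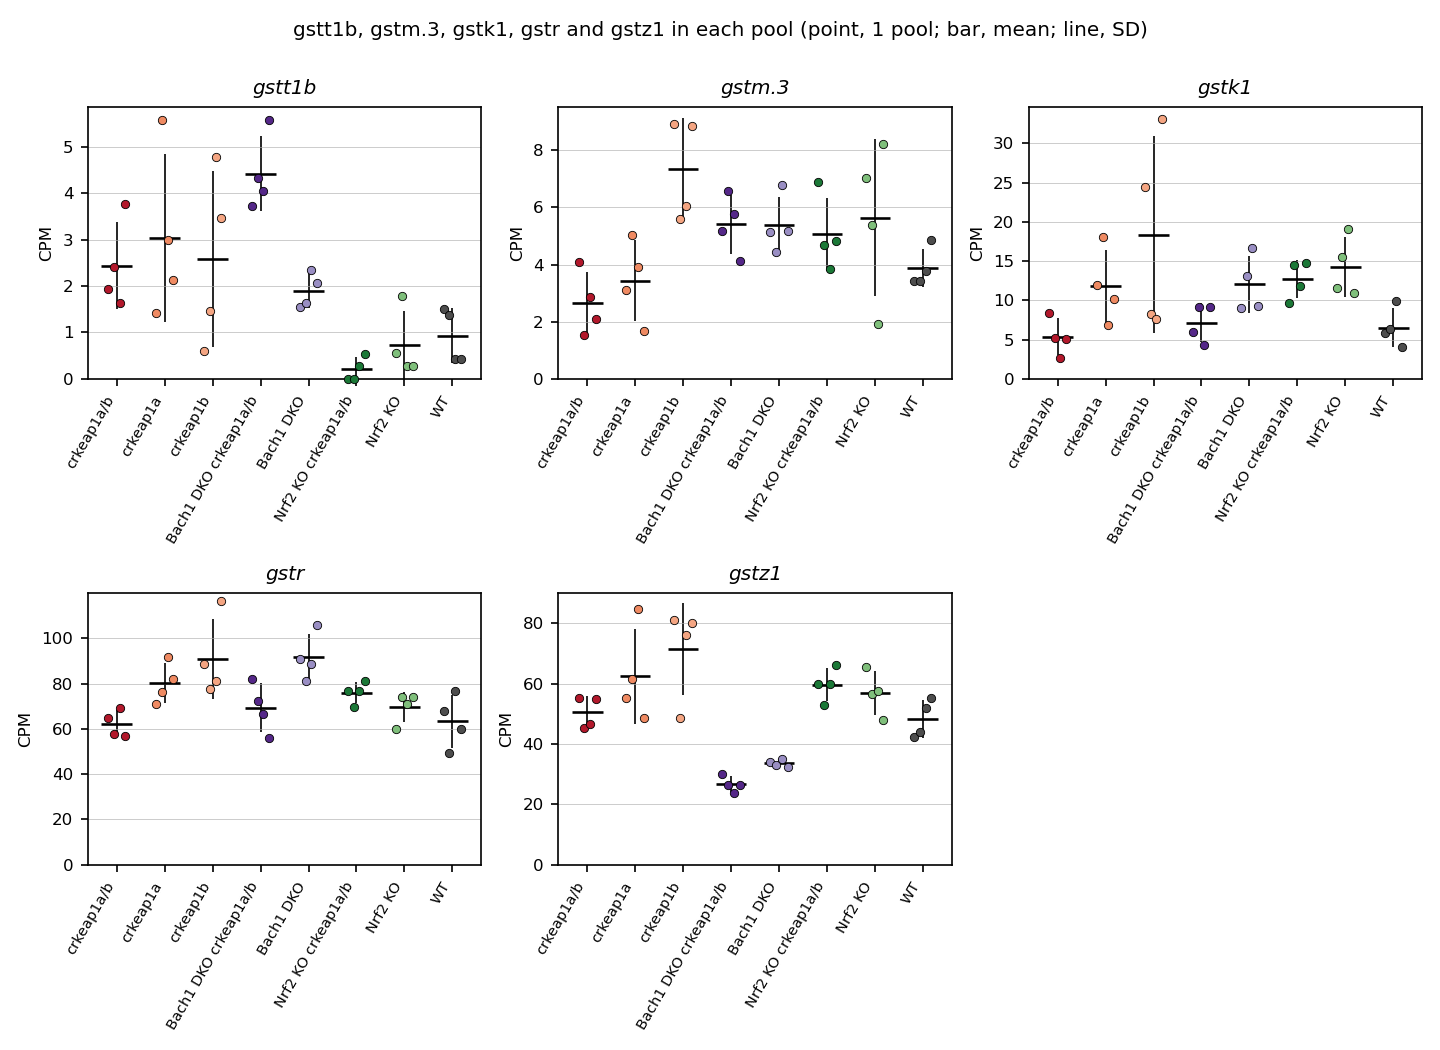
Level of gstt1b, gstm.3, gstk1, gstr and gstz1 (CPM, linear axis from 0) in each pool, with the mean of 4 pools as a bar and its SD as a line, by group. gstk1 is widest in crkeap1b pools, at 7.65 to 33.1 CPM, and gstz1 is lowest in Bach1 DKO crkeap1a/b and Bach1 DKO pools.

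Over the 32 pools the log2 CPM of gstp1.1, gstp1.2 and gsto2 correlated with each other at Pearson r of 0.954 to 0.975, and gsto1 with these 3 at 0.817 to 0.859. These are descriptions, since the pools share their group structure. The rows outside the list that were most like gstp1.2 were mgst3b, a microsomal glutathione transferase (r = 0.977), sqor, which oxidizes hydrogen sulfide in mitochondria (0.969), and the ferritin heavy chain gene fthl31 (0.966). Most like gsto2 were mgst3b (0.977), fthl28 (0.976) and ethe1, a persulfide dioxygenase (0.974). For gstp1.1 they were the methyltransferase gene tpmt.2 (0.964), the prostaglandin reductase gene ptgr1.2 (0.963) and the peroxiredoxin gene prdx1 (0.955). gsto1 was most like the thioredoxin reductase gene txnrd3 (0.935), tpmt.1 (0.907) and a row with no symbol (0.898). By Spearman correlation, the first-ranked row stayed first for gsto1 and gsto2 and was fthl28 for gstp1.1 and gstp1.2.

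Other glutathione transferases, including membrane-bound ones, were counted from a second list. Of 18 names, 9 had a row and all 9 were tested. In crkeap1a/b against WT larvae 2 were called, both higher (median log2 fold change 0.10 over the 9), where 5.26% of all rows were called. The count was 1 without crkeap1a/b pool 1 or 3 or WT pool 3 or 4. mgst3b had 245 ± 81.7 CPM in crkeap1a/b larvae against 26.6 ± 6.00 CPM in WT larvae (3.16, SE 0.25, limma-voom adjusted p = 3.36e-12), and mgst2 rose by 0.84 (SE 0.23, limma-voom adjusted p = 0.02). In Bach1 DKO crkeap1a/b against Bach1 DKO larvae 2 were higher and 1 lower, 3 of 9 where 24.7% of all rows were called, led by mgst3b (566 ± 30.3 against 40.3 ± 5.71 CPM; 3.82, SE 0.25) and mgst2 (1.05, SE 0.21). The lower one was gdap1l1 (-0.69, SE 0.17), named after its values were seen. In Nrf2 KO crkeap1a/b against Nrf2 KO larvae 1 of the 9 was called, mgst3b (1.52, SE 0.25), where 0.784% of all rows were called.

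Among genes that supply or break down glutathione or handle its conjugates, some were called as well. Of 12 genes of supply or breakdown, 10 were tested, among them chac1, chac2 and ggctb, which act in breakdown. In crkeap1a/b against WT larvae 5 of the 10 were higher and 0 lower (median log2 fold change 1.51), where 3.36% of all rows were called higher. The largest changes were those of slc7a11, the cystine importer (25.8 ± 4.43 against 1.67 ± 0.496 CPM; 3.89, SE 0.36, limma-voom adjusted p = 2.88e-10), and gsr, glutathione reductase (21.2 ± 3.40 against 2.36 ± 1.52 CPM; 3.38, SE 0.37, limma-voom adjusted p = 1.06e-08). With editing in the Bach1 line, where 13.5% of all rows were called higher, 6 were higher, led by the same pair, slc7a11 at 4.89 (SE 0.37) and gsr at 4.02 (SE 0.37). Of 21 names of the mercapturic acid pathway, which trims and exports glutathione conjugates, 19 were tested. There 7 were higher and 0 lower in crkeap1a/b against WT larvae, and 10 were higher and 0 lower with editing in the Bach1 line. The 7 calls in crkeap1a/b larvae became 4 without crkeap1a/b pool 2 or WT pool 1, and 4 to 8 over the 8 fits that left out 1 pool. ggt1b, which cleaves the glutamyl group, had 6.84 ± 1.21 CPM in crkeap1a/b larvae against 1.23 ± 0.962 CPM in WT larvae (2.61, SE 0.40, limma-voom adjusted p = 1.63e-05). With editing of Bach1 DKO larvae it rose by 2.67 (SE 0.26) and the exporter abcc2 by 2.41 (SE 0.19). abcc4, another exporter, rests on 21 counts in crkeap1a/b and 4 counts in WT pools, a ratio of 5.14 with an exact conditional 95% interval of 1.74 to 20.6 for counting error, and its limma-voom call (adjusted p = 0.0236) was lost with edgeR and DESeq2. In the Nrf2 line, where 0.696% of all rows were called higher, editing gave 1 call in each of these 2 lists, both named after their values were seen: gsr (2.80, SE 0.70), which was lost in all 8 fits that left out 1 pool, and the aminopeptidase gene anpepb.1 (1.17, SE 0.15). Over all rows tested, the median log2 fold change with editing was -0.02 in the WT background and -0.05 in the Bach1 line.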

How the data were processed

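RNA was measured in 32 pools of 10 whole larvae, grouped by the sample titles. The deposited table holds counts per gene, not normalized. The authors trimmed single-end 3′ end reads, mapped them to danRer11 (GRCz11) and assigned them to genes of a published zebrafish annotation; the submitters' processing notes name FastQC 0.72, cutadapt 1.16, STAR 2.7.5b, featureCounts 1.6.3 and limma 3.40.6. Handling of multi-mapping reads is not given in the sources used here. No use of molecular identifiers is stated.

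Of 16825 rows, 16039 have an Entrez ID, and 15617 IDs matched a RefSeq gene table of GRCz12tu, used for names and gene order only. The 786 rows without an ID were kept, and 1 of them took 28.0% to 40.6% of a library. All 32 columns were matched to samples by name, with 0 left over. No pair of pools looked like a duplicate (chi-square per degree of freedom at least 1.75 within groups). The labels name no batch.

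Counts were tested in R 4.3.3 with limma 3.58.1 (voom, eBayes, two-sided), the study's stated method with no covariate, and TMM scaling from edgeR 4.0.16. Rows passed filterByExpr with a minimum count of 10 (2.47 CPM), leaving 14660. A model of 8 group means gave 24 residual and 12.6 prior degrees of freedom. Benjamini-Hochberg adjustment ran over all rows of each of 10 contrasts, 7 between groups and 3 interactions, with calls at an adjusted p under 0.05. The contrasts with WT share its 4 pools. Correlations used log2 CPM with a prior count of 2. Alternatives used DESeq2 1.42.0 and edgeR among others.

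All matched members are named, with the 3 most similar rows of each gene called in crkeap1a/b against WT larvae, and the 2 called genes with the largest change from each added list in crkeap1a/b against WT and in Bach1 DKO crkeap1a/b against Bach1 DKO larvae. The members and lists were chosen with earlier results of these data known. Labels do not say that pools came from separate clutches, so p-values measure only the spread between these pools.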

Additional observations from a re-analysis of the deposited data

Results flagged for a closer look

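With 4 pools a group, 72 combinations of gene and group were searched for a pool far from the others by Dixon's criterion, which chance meets in about 1 in 20. Of these, 2 met it. gsto1 stood at 47.8 CPM in pool 3 of Bach1 DKO crkeap1a/b larvae, against 36.5 to 38.1 CPM in the other 3 pools. gstz1 was at 48.6 CPM in crkeap1b pool 2, against 76.2 to 80.9 CPM in the others, and this is the crkeap1b pool that did not stand apart on the first principal component.

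Changes that differed between conditions by limma-voom's test of the difference were those given in the report. Beyond the sum of the single edits, crkeap1a/b larvae were higher by 2.69 on the log2 scale in gstp1.1, 1.67 in gsto2 and 0.95 in gstp1.2. The same term was -2.38 in gstk1, -0.88 in gstr and -0.81 in gstz1. The change with editing differed in the Bach1 line by 1.24 in gsto2. In the Nrf2 line it differed by -3.20 in gstp1.1, -3.15 in gsto2 and -1.90 in gstp1.2. No cause was tested for any of these.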

How the results depend on the processing

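Of 197 recomputed counts of transferases called, 177 stayed within 1.5 times the reported count. Fold changes were recomputed for transferases and for genes of the added lists, and none of those given here changed sign under any alternative. The fold changes of marker genes and of the edited genes were not recomputed. The fit of only the crkeap1a and WT pools did not test gstt1b, which the count filter left out. The counts that moved were these. For crkeap1a against WT, 5 became 3 when only the compared groups were fitted and 3 without the 5 pools that stood apart, a choice made after seeing the data; leaving out 1 pool gave 3 to 6, with 3 without crkeap1a pool 2 or WT pool 3. For crkeap1b against WT, 6 became 2 with total-count scaling, 2 with only the compared groups and 0 without those pools; leaving out 1 pool gave 2 to 7, with 2 without crkeap1b pool 4. For Bach1 DKO against WT, 3 became 5 with only the compared groups. For Nrf2 KO against WT, 1 became 2 with total-count scaling, with DESeq2 and with only the compared groups, and leaving out 1 pool gave 0 to 1, with 0 without Nrf2 KO pool 2 or 3 or WT pool 1, 2 or 4. For the keap1a by keap1b interaction, 6 became 2 without the 5 pools. For the difference by Bach1 background, 1 became 2 with quality weights and with only the compared groups. Causes were not tested.

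Over all rows, quality weights gave 1207 calls (1926 reported) for crkeap1a against WT, 5470 (3614) for editing in the Bach1 line, 614 (115) for editing in the Nrf2 line, and 877 (398) and 300 (163) for the differences by Bach1 and by Nrf2 background. Fits of only the compared groups gave fewer calls for crkeap1a (386), crkeap1b against WT (415, 2614 reported) and the keap1a by keap1b interaction (4246, 5571 reported). They gave more in all other contrasts, with 967 (771) for crkeap1a/b and 5203 for editing in the Bach1 line. Editing in the Nrf2 line had 739, and the differences by Bach1 and by Nrf2 background had 1005 and 393. DESeq2 gave 235 for editing in the Nrf2 line. Leaving out 1 pool gave 607 to 2867 calls for crkeap1a, 1057 to 4417 for crkeap1b, 59 to 103 for editing in the Nrf2 line and 196 to 453 for the difference by Bach1 background. Without the 5 pools there were 324 calls for crkeap1a, 73 for crkeap1b and 628 (5571) for the keap1a by keap1b interaction. Total-count scaling gave 5469 calls for crkeap1b and moved the median log2 fold change of all rows to -0.22 (crkeap1a), -0.45 (crkeap1b), -0.23 (Nrf2 KO) and 0.73 (keap1a by keap1b interaction). Its higher and lower calls were 439 and 2229 for crkeap1a (898 and 1028 reported), 453 and 5016 for crkeap1b (1426 and 1188), 620 and 2643 for Nrf2 KO (1248 and 1107) and 6276 and 952 for the interaction (2847 and 2724).

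Replicate numbers were not taken as a pairing, as same-numbered deviations correlated at -0.40 to 0.25. Between Bach1 DKO crkeap1a/b and Bach1 DKO pools they correlated at 0.08 to 0.16 (mean 0.14), not over 0.1 in every pair. Weak pairing in the Bach1 line was not settled by this. The block below is shared by all groups, so it cannot show pairing within a single line. With the replicate number as a block, the count of transferases called for editing in the Bach1 line was 5 instead of 6. The gene lost was gstt1b (1.17, limma-voom adjusted p = 0.0564). The count for crkeap1b against WT was 7 instead of 6, with gstm.3 added (0.89, limma-voom adjusted p = 0.0478). The block changed no other count of transferases. The search of promoters for antioxidant response elements was not run, as no promoter sequence was used here. Depth limits gstt1b, where a pool held 0 to 23 counts, and gstp1.1 without editing. A pool held 3 to 17 counts of gstp1.1 in WT, 8 to 14 in Bach1 DKO and 4 to 7 in Nrf2 KO larvae. gsto1 had 3 to 12 counts in Nrf2 KO pools. Changes of these genes with editing, and their differences between backgrounds, rest on those low levels.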

Other observations

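Among the added transferases, 2 genes were singled out after their values were seen. gstt2, a theta class gene, held 1 count in the 4 Nrf2 KO pools and 3 counts in the 4 Nrf2 KO crkeap1a/b pools, against 50 counts in the 4 WT pools. Its Nrf2 KO pools were at 0 to 0.265 CPM and its WT pools at 2.11 to 3.58 CPM, and the Nrf2 KO to WT ratio was 0.0259 with an exact conditional 95% interval of 0.000642 to 0.151 for counting error (limma-voom adjusted p = 0.000233). Its mean was 2.83 CPM or more in crkeap1a, crkeap1b, crkeap1a/b, Bach1 DKO crkeap1a/b and Bach1 DKO larvae. gstm.1, a mu class gene, had 7.65 ± 2.93 CPM in Bach1 DKO and 16.3 ± 3.98 CPM in WT larvae (SD, n = 4 each), with pools that did not overlap and a log2 fold change of -1.11 (SE 0.23, limma-voom adjusted p = 0.000523). Its mean was 5.13 ± 1.78 CPM in Bach1 DKO crkeap1a/b larvae and 16.5 ± 1.07 CPM in Nrf2 KO larvae. The mutation and the line cannot be told apart in either comparison.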
